A study of Mus musculus with 22 samples.

Results

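The 50 genes described here carry a cell from G1 into S phase and copy its DNA: they license origins, form and activate the MCM helicase, build the replication fork, supply deoxynucleotides or regulate the G1/S transition. They were taken from the table by gene symbol, from a list drawn up with earlier results of these data known, and all 50 had 1 row each among the 55011 genes of the count table. All 50 passed the filter on low counts, which kept 15462 genes. The data are 22 Smart-seq libraries, each made from sorted CD4+ T cells of mouse lymph nodes. Each title carries a code of a letter and a number that is shared by 2 libraries. The 11 codes fall into 3 groups. FOXP3 (codes F1, F2, F5, N2 and N3) holds CD4+ T cells of scurfy mice, which lack functional Foxp3, engineered with a vector for human FOXP3 and the LNGFR surface marker. LNGFR (G1, G2 and G3) holds scurfy CD4+ T cells that received the empty LNGFR vector. WT Treg (E2, G4 and L1) holds CD4+CD25+ CD45.1+ cells, the transferred regulatory T cells. The source labels call FOXP3 and WT Treg regulatory (Treg) cells and LNGFR conventional (Tconv) cells.

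All recipients were scurfy mice aged 10 days at treatment with cyclophosphamide at 50 mg/kg, given cells on day 14 and human IL-2 at 1000 IU/g. On day 50, 1000 cells per library were sorted by LNGFR or CD45.1. Every sample, WT Treg included, carries the label C57BL/6 and a Foxp3-deficient scurfy genotype, and for WT Treg the labels do not say whether this is the donor's or the recipient's. No source used here gives the age or genotype of the donors of the CD45.1+ cells. Whether a code stands for 1 animal is not stated either, so the p-values measure the spread between codes. The LNGFR codes begin with G and the FOXP3 codes with F or N, so the vector and whatever the letter stands for cannot be told apart.

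Origins are licensed in G1, when ORC, Cdc6 and Cdt1 load the MCM2-7 ring onto DNA, and geminin later blocks reloading. Cyclin D with Cdk4 or Cdk6, and cyclin E with Cdk2, release E2F factors from the retinoblastoma proteins, and E2F drives transcription of many replication genes. Conventional and regulatory T cells of the lymph node are mostly quiescent, and they switch this programme on when antigen and IL-2 make them divide. In RNA from a sorted bulk, fewer cells in S phase and less RNA per cell cannot be told apart.

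Several codes stand apart. Code totals were 1154626 counts in E2, 3109515 in G1 and 5867295 or more in the other 9 codes. Both E2 libraries and the second G1 library held 332570 to 641980 counts, with 28.3% to 55.7% of them on 11 repeat-derived gene models, against 2.09% to 4.27% in the other 19 libraries. The log2 counts of the 50 genes correlated between the 2 libraries of a code at 0.97 to 0.99, except in E2 (0.80) and G1 (0.56). On the scale of counts per 1000000 of the scaled library (CPM), T cell markers summed to 4292 CPM in N3 and 2792 CPM in E2, against 6255 to 8285 CPM in the others. B cell markers (10 of 10 detected in N3, with the receptor chain gene Cd79a at 994 CPM) summed to 5478 CPM in N3 and 1578 CPM in G1, against 145 to 614 CPM elsewhere. Mouse Foxp3, whose transcript is not that of the human transgene, was at 162 to 313 CPM in FOXP3, 42.7 to 143 CPM in LNGFR and 704 to 1630 CPM in WT Treg codes, and the transgene itself was not analysed here.

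E2F factors are known to bind promoters of many replication genes, so the stretches that hold an E2F-type word are shown. RefSeq windows on GRCm38.p6, from 250 bases before to 50 after the start, were found for 41 of the 50 genes. Missing were Gmnn, Mcm4, Gins1, Gins2, Rfc2, Prim2, Pole, Ccne2 and Ccnd2. The words searched on both strands were TTTCCCGC, TTTCGCGC, TTTGCCGC and TTTGGCGC, which can overlap one another. At least 1 word lay in the windows of 15 of the 41 genes (36.6%): Cdc6, Cdk2, Cdt1, Clspn, E2f2, Gins3, Lig1, Mcm3, Mcm5, Mcm6, Mcm7, Orc1, Pola1, Pold1 and Rfc3. Counted by window, 15 of 48 windows (31.2%) held one, against 744 of 32851 RefSeq windows of the same length (2.26%). The median GC content was 61.3% in the member windows and 52.7% in all windows. Shown are 60 bases of 8 of the 15 promoters, 5′ to 3′ on the gene's own strand, with the words in capitals. They were picked because the stretch lies mostly before the RefSeq start, in Rfc3 by a narrow margin, and because they span licensing, helicase, loader and polymerase genes. The gene starts of GENCODE M21 differ, and by them the stretches of Cdc6, Gins3, Mcm7 and Rfc3 lie inside the gene.
Orc1, chr4:108579401-108579460, plus strand: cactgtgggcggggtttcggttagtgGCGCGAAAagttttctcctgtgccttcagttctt
Cdc6, chr11:98907987-98908046, plus strand: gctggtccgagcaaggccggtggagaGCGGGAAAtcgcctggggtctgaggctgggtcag
Mcm5, chr8:75109332-75109391, plus strand: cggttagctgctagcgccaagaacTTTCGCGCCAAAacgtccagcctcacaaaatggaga
Mcm6, chr1:128359760-128359819, minus strand: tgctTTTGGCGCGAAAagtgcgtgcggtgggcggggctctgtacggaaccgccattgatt
Mcm7, chr5:138171993-138172052, minus strand: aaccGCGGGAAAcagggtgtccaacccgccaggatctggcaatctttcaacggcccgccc
Gins3, chr8:95633492-95633551, plus strand: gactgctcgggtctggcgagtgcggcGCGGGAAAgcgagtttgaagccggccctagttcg
Rfc3, chr5:151651180-151651239, minus strand: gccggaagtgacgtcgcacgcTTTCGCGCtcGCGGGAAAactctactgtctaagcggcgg
Pola1, chrX:93632260-93632319, minus strand: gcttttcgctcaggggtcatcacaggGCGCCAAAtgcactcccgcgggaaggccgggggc
Mcm5 and Mcm6 each hold a pair of words that overlap on opposite strands, and Rfc3 holds a pair side by side. A match is a string of letters, and binding was not measured.

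The first comparison set FOXP3 against LNGFR, the human FOXP3 vector against the empty vector in the same kind of scurfy T cell. Nearly every replication gene was measured higher with FOXP3, with the largest differences in Rrm2, Mcm10, Cdc6 and Cdc45, while the cyclin D genes, Cdk4, Cdk6, E2f1 and the CDK inhibitors lay near 0. None of the differences passed the test. Of the 50 genes 47 had a log2 fold change above 0, with a median of 0.96, beside -0.02 over all 15462 genes tested. The quasi-likelihood test of edgeR, with Benjamini-Hochberg adjusted p under 0.05 over all genes, called 0 of the 50 higher and 0 lower, where it called 0.168% of all genes higher and 0.375% lower. At an unadjusted p under 0.05, 28 of the 50 were higher and 0 lower, beside 4.81% of all genes that were higher and 5.50% that were lower at that level. In 8 of the 50 every FOXP3 code lay above every LNGFR code, which was so for 4.35% of all genes. DESeq2 called 8 of the 50 higher (1.44% of all genes) and limma-voom with sample quality weights 29 (3.34%).

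**Figure D1:**
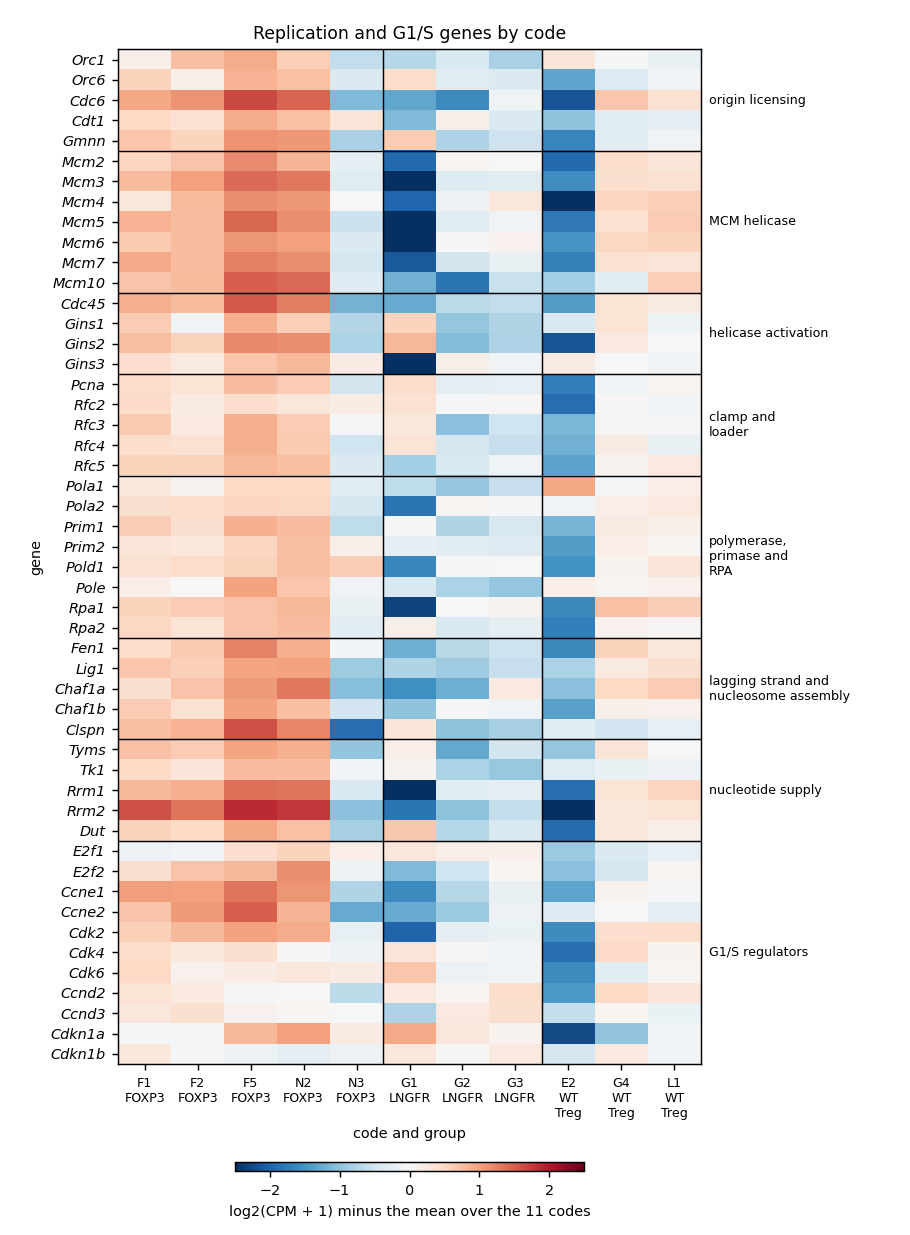
Level of each of the 50 genes (rows, grouped by role) in each of the 11 codes (columns, by group), as log2(CPM + 1) minus the gene's mean over the codes. Colours stop at 2.5 either way. Codes F1, F2, F5 and N2 are red in most rows above the G1/S regulators, N3 resembles the LNGFR codes, and E2 and G1 hold most of the dark blue cells.

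One FOXP3 code, N3, lay far from the other 4. N3 was the lowest FOXP3 code in 45 of the 50 genes and F5 the highest in 34. F1, F2, F5 and N2 each lay above every LNGFR code in 34 of the 50 genes, whereas N3 lay inside the LNGFR range in 33, below it in 9 and above it in 8. N3 was set apart after the data were seen, and these counts were made for the 50 genes only. With no share over all genes beside them, they do not show whether N3 stands apart in these genes more than in others. The mean log2(CPM + 1) of the 50 genes was 6.44 in F1, 6.40 in F2, 6.81 in F5, 6.71 in N2 and 5.48 in N3. In LNGFR codes it was 5.12, 5.41 and 5.63. N3 is also the code with the most B cell marker RNA. Its part in the result was not tested. Without N3, 7 of the 50 genes were called higher (Ccne1, Ccne2, Cdc45, Clspn, Lig1, Mcm10 and Rrm2), beside 1.08% of all genes. Without E2 and G1, a choice made after the data were seen, 3 were called (Pola1, Rfc3 and Tk1), beside 0.824%. Without E2, G1 and N3 together 39 were called, beside 6.61%. Since N3 is low in these very genes, a count without it is not independent of them.

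**Figure D2:**
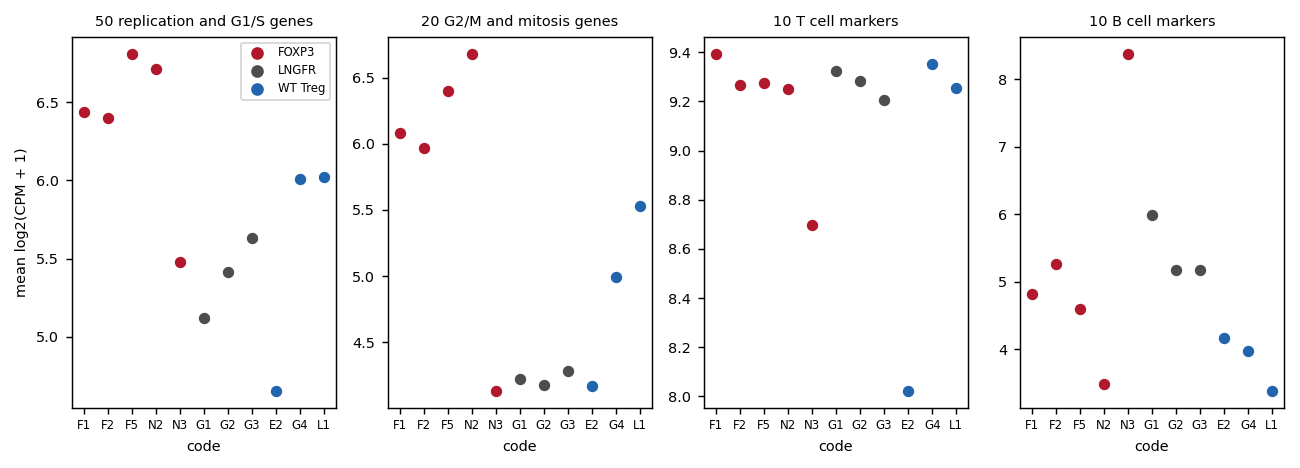
Mean log2(CPM + 1) of 4 gene lists in each code, coloured by group. N3 lies with the LNGFR codes in the replication and the G2/M lists, at 5.48 and 4.13, and highest in the B cell list, at 8.37.

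Among the origin licensing genes (Orc1, Orc6, Cdc6, Cdt1 and Gmnn) the median log2 fold change was 0.94. An unadjusted p under 0.05 was found in 3 of the 5, beside 4.81% of all genes that were higher at that level. Cdt1, the loader of MCM2-7, was at 98.0 CPM in F1, 89.6 in F2, 132 in F5, 116 in N2 and 85.9 in N3. In LNGFR it was at 31.9 CPM in G1, 76.8 in G2 and 54.1 in G3. Every FOXP3 code lay above every LNGFR code, with a log2 fold change of 0.94 ± 0.31 (SE) and an edgeR adjusted p of 0.264. DESeq2 called it, at an adjusted p of 0.0478. Cdc6, the ATPase that recruits Cdt1 and MCM2-7 to ORC, was at 42.2 CPM in F1, 47.6 in F2, 68.8 in F5, 60.0 in N2 and 9.36 in N3. LNGFR codes held 8.07 CPM in G1, 6.40 in G2 and 19.7 in G3, so that only N3 lay among them. The log2 fold change of Cdc6 was 1.98 ± 0.65 (adjusted p 0.247). Orc1, the largest ORC subunit, had a log2 fold change of 1.23 ± 0.41, Orc6 of 0.50 ± 0.35 and Gmnn, the licensing inhibitor geminin, of 0.78 ± 0.47.

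The MCM genes were the role with the largest median, 1.52 on the log2 scale, and all 7 lay above 0. Their summed level was 1829 CPM in F1, 1983 in F2, 2696 in F5, 2439.7 in N2 and 907 in N3. In LNGFR it was 206 CPM in G1, 995 in G2 and 1119.8 in G3. The G1 value lies far below the other LNGFR sums. Without G1 the MCM median was 1.07, and the largest median was that of the 4 helicase activation genes, 1.52 against 0.93 with G1. Mcm2, a subunit of the ring, was at 226 CPM in F1, 253 in F2, 350.1 in F5, 279.7 in N2 and 133 in N3, and in LNGFR at 39.3 CPM in G1, 163 in G2 and 154 in G3. Its groups overlapped through N3 (1.06 ± 0.55, adjusted p 0.561). The ring subunits Mcm3, Mcm4, Mcm5, Mcm6 and Mcm7 had log2 fold changes of 1.74, 1.06, 1.52, 1.18 and 1.55.

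Mcm10 (chr2:4989714-5012791 on GRCm38), which is not a ring subunit and helps start the helicase, had the smallest adjusted p of the 50 genes. It was at 21.7 CPM in F1, 22.9 in F2, 38.2 in F5, 36.1 in N2 and 10.0 in N3. LNGFR codes held 5.04 CPM in G1, 2.88 in G2 and 8.39 in G3, all below the lowest FOXP3 code. The log2 fold change was 2.22 ± 0.51 with an edgeR adjusted p of 0.0786. It was 2.41 ± 0.44 without N3 (adjusted p 0.0160) and 2.17 ± 0.61 without G1 (adjusted p 0.215). Of the helicase activation genes, Cdc45, the helicase cofactor, had a log2 fold change of 1.77 ± 0.53. The GINS subunits Gins1, Gins2 and Gins3 had 0.71, 0.90 and 0.95. Gins3 was at 1.68 CPM in G1, against 13.9 to 27.1 CPM in the other LNGFR and FOXP3 codes.

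The sliding clamp and its loader had a median of 0.64, below the other fork roles, though without G1 it was 0.77 and that of the polymerase, primase and RPA genes 0.75. Pcna, the clamp that holds polymerases on DNA, was at 135 CPM in F1, 123 in F2, 168 in F5, 153 in N2 and 70.3 in N3. In LNGFR it was at 134 CPM in G1, 82.4 in G2 and 84.2 in G3, so G1 sat at the level of F1. The log2 fold change of Pcna was 0.38 ± 0.39 (adjusted p 0.763), and the loader subunits ranged from 0.20 (Rfc2) to 0.95 (Rfc5).

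Among the 8 polymerase, primase and RPA genes the median was 0.93. In 4 of the 8 every FOXP3 code lay above every LNGFR code, which was so for 4.35% of all genes. Pola1, the catalytic subunit of polymerase alpha, was at 53.2 CPM in F1, 47.3 in F2, 63.2 in F5, 62.6 in N2 and 36.3 in N3, and in LNGFR at 28.2 CPM in G1, 22.2 in G2 and 29.2 in G3. Its log2 fold change was 0.98 ± 0.29 (adjusted p 0.192). Pole, the catalytic subunit of the leading-strand polymerase epsilon, was at 31.6 CPM in F1, 28.1 in F2, 57.4 in F5, 45.8 in N2 and 26.1 in N3. With 21.2 CPM in G1, 15.8 in G2 and 13.9 in G3, LNGFR lay below all FOXP3 codes, and the log2 fold change was 1.16 ± 0.30 (adjusted p 0.122). Pold1, of the lagging-strand polymerase delta, was a gene in which N3 was not the lowest FOXP3 code. FOXP3 codes held 118 CPM in F1, 124 in F2, 135 in F5, 153 in N2 and 138 in N3. LNGFR held 28.6 CPM in G1, 87.2 in G2 and 90.3 in G3. The log2 fold change was 0.95 ± 0.42. Prim2, the large primase subunit, was at 49.4 CPM in F1, 47.6 in F2, 57.9 in F5, 67.0 in N2 and 44.0 in N3. In LNGFR it was at 33.6 CPM in G1, 32.2 in G2 and 31.6 in G3, all lower, and the log2 fold change was 0.71 ± 0.30 (adjusted p 0.437). The other 4, Pola2, Prim1, Rpa1 and Rpa2, ranged from 0.60 to 0.96.

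All 5 genes of the role of lagging-strand joining and nucleosome assembly, which also holds Clspn, had an unadjusted p under 0.05. Over all genes 4.81% were higher at that level. The median of the 5 was 1.36. Fen1, the flap nuclease that trims Okazaki fragments, was at 8.69 CPM in F1, 10.1 in F2, 15.6 in F5, 12.2 in N2 and 5.77 in N3. LNGFR codes held 2.02 CPM in G1, 3.36 in G2 and 3.96 in G3, all lower, and the log2 fold change was 1.71 ± 0.49 (adjusted p 0.174). Fen1 shares 1909 exon bases with the antisense gene Gm10143, and since the strand setting of the counting is not given, reads of the pair cannot be told apart. The same holds for Chaf1a with Ubxn6 (4648 bases), Gins2 with Gse1 (2758), Rfc2 with Lat2 (952), Cdk4 with Tspan31 (641) and Ccne2 with Ints8 (609). Lig1, the ligase of Okazaki fragments, had a log2 fold change of 1.37 ± 0.41. Clspn, the claspin of the fork and its checkpoint, was at 3.59 CPM in N3, while the other FOXP3 codes held 28.1 to 50.9 CPM, a mean 10.3 times higher and the widest such gap among the 50 genes.

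Nucleotide supply held the largest fold change of the 50 genes. Rrm2 (chr12:24708241-24714146 on GRCm38), the S-phase subunit of ribonucleotide reductase, was at 424 CPM in F1, 356 in F2, 513 in F5, 479.7 in N2 and 67.5 in N3. In LNGFR it was at 38.7 CPM in G1, 68.3 in G2 and 92.1 in G3. F1, F2, F5 and N2 lay far above every LNGFR code, whereas N3 lay within the LNGFR range. The log2 fold change was 2.47 ± 0.71 (adjusted p 0.174), 2.73 ± 0.58 without N3 (adjusted p 0.0347) and 2.20 ± 0.82 without G1 (adjusted p 0.434). Tyms, thymidylate synthase, was at 151 CPM in F1, 142 in F2, 181 in F5, 168 in N2 and 45.4 in N3, and in LNGFR at 102 CPM in G1, 36.7 in G2 and 65.5 in G3, with a log2 fold change of 1.02 ± 0.46. Tk1, the thymidine salvage kinase, was at 84.3 CPM in F1, 73.2 in F2, 102 in F5, 101 in N2 and 56.1 in N3. LNGFR held 62.9 CPM in G1, 33.6 in G2 and 30.3 in G3, where only G1 reached the lowest FOXP3 code. The log2 fold change of Tk1 was 0.99 ± 0.30 (adjusted p 0.207) and 1.38 ± 0.23 without E2 and G1 (adjusted p 0.0111).

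The 11 G1/S regulators split. The cyclin E genes, their partner Cdk2 and E2f2, an activating E2F, had log2 fold changes from 1.11 to 1.65. Each had an unadjusted p under 0.05, beside 4.81% of all genes that were higher at that level. The other 7 ranged from -0.24 to 0.13. Ccne1, cyclin E1, was at 72.2 CPM in F1, 70.6 in F2, 88.2 in F5, 74.6 in N2 and 20.0 in N3, and in LNGFR at 10.8 CPM in G1, 20.6 in G2 and 30.1 in G3. N3 lay below G2 and G3 there, and the log2 fold change was 1.65 ± 0.48 (adjusted p 0.181). E2f1, another activating E2F, was at 7.51 CPM in F1, 7.91 in F2, 11.5 in F5, 12.8 in N2 and 9.58 in N3, against 10.4 CPM in G1, 9.44 in G2 and 9.23 in G3, so that LNGFR lay inside the FOXP3 range (0.03 ± 0.30).

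The kinases and D cyclins of early G1 were abundant in both groups. Cdk4 was at 252 CPM in F1, 219 in F2, 241 in F5, 187 in N2 and 168 in N3, and in LNGFR at 228 CPM in G1, 188 in G2 and 175 in G3. Cdk6, the other cyclin D kinase, was at 863 CPM in F1, 656 in F2, 697 in F5, 745 in N2 and 703 in N3, and in LNGFR at 991 CPM in G1, 549 in G2 and 581 in G3. Both overlapped, with log2 fold changes of 0.12 ± 0.40 and 0.05 ± 0.37. Ccnd2, cyclin D2, was at 743 CPM in F1, 692 in F2, 574 in F5, 587 in N2 and 370.2 in N3, and in LNGFR at 697 CPM in G1, 607 in G2 and 795 in G3. Ccnd3, cyclin D3, was at 634 CPM in F1, 688 in F2, 568 in F5, 544 in N2 and 523 in N3, and in LNGFR at 306 CPM in G1, 623 in G2 and 693 in G3. Their log2 fold changes were -0.24 ± 0.39 and 0.13 ± 0.32, and neither group stood above the other. Cdkn1a, the CDK inhibitor p21, was at 76.7 CPM in F1, 74.9 in F2, 139 in F5, 159 in N2 and 89.3 in N3, and in LNGFR at 151 CPM in G1, 95.2 in G2 and 82.5 in G3. Cdkn1b, the quiescence-linked inhibitor p27, was at 116 CPM in F1, 93.4 in F2, 87.9 in F5, 82.4 in N2 and 86.7 in N3, and in LNGFR at 115 CPM in G1, 97.5 in G2 and 114 in G3. These inhibitors had log2 fold changes of -0.02 ± 0.42 and -0.22 ± 0.24. Without E2, G1 and N3, the 11 genes of the 50 that were not called were Cdkn1a, Cdkn1b, Cdk4, Cdk6, Ccnd2, Ccnd3, E2f1, Chaf1a, Gins3, Mcm4 and Rfc2.

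**Figure D3:**
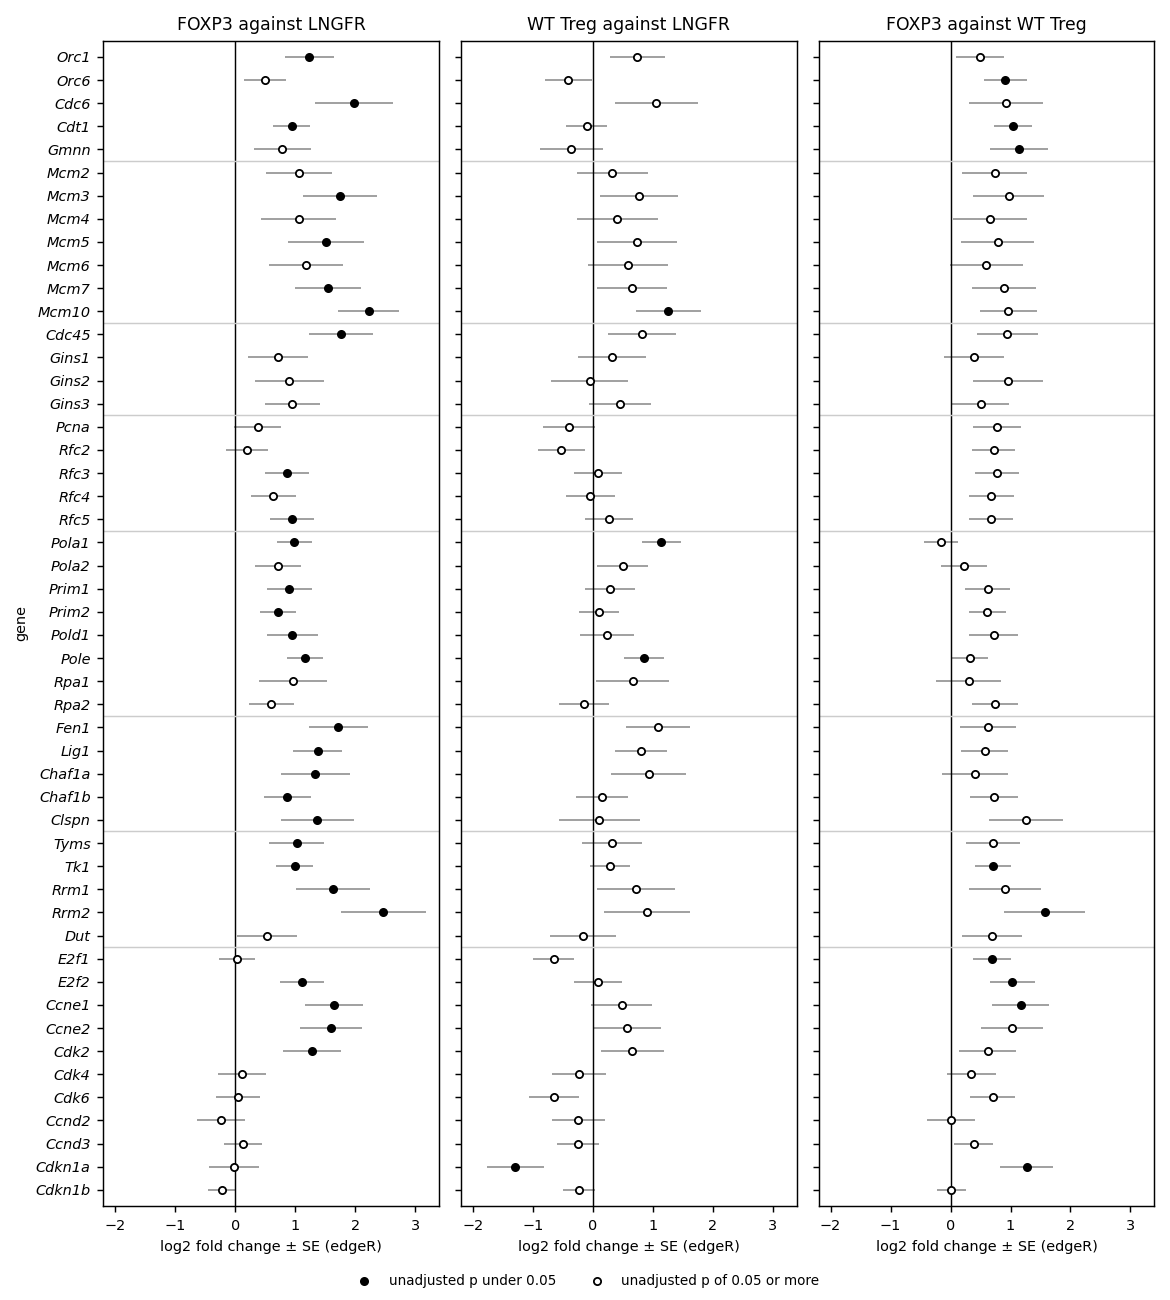
Log2 fold change with SE of each gene in the 3 comparisons, by role from origin licensing (top) to G1/S regulators (bottom). Filled points have an unadjusted p under 0.05, which 28, 3 higher and 1 lower, and 9 genes have from left to right, and no gene has an adjusted p under 0.05.

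Levels between genes were compared only as CPM per kb of exon. The length used is that of all annotated exons of a gene, merged over its transcripts. It can exceed the length of the transcript made, and the order between genes depends on it. In FOXP3 the highest of the 50 were Rrm2 (133 CPM per kb), Mcm6 (113), Mcm3 (102) and Mcm5 (76.5), followed by Ccnd3 (67.4). In LNGFR the highest were Ccnd2 (74.3), Ccnd3 (61.6), Cdk4 (60.5) and Cdk6 (50.6), and Rrm2 was at 23.9. Without G1 the LNGFR order was Ccnd3 (74.99), Ccnd2 (74.5), Mcm6 (70.4) and Cdk4 (55.8), with Cdk6 at 40.4 and Rrm2 at 28.9. Without N3 the first 4 in FOXP3 were again Rrm2 (159.9), Mcm6 (128), Mcm3 (117) and Mcm5 (88.4). The genes with a promoter word had a median log2 fold change of 1.23 (15 genes, 0.86 to 1.98), and the 35 without a word or without a window 0.87 (-0.24 to 2.47). That difference is a description and was given no test. The G1/S regulators near 0 (Cdk4, Cdk6, Ccnd2, Ccnd3, E2f1, Cdkn1a and Cdkn1b) are all among the 35, so the sets also differ in role.

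WT Treg was set against LNGFR next, with the same LNGFR codes, so that the fold changes of the comparisons share them and are set side by side only. Most of the 50 genes lay within 1 log2 unit of LNGFR here, and the medians of the roles fell on both sides of 0. The median log2 fold change was 0.30, beside 0.08 over all genes, and 34 of the 50 lay above 0. The edgeR test called 0 higher and 0 lower, where it called 0.627% of all genes higher and 0.673% lower. At an unadjusted p under 0.05, 3 were higher (Mcm10, Pola1 and Pole), beside 8.16% of all genes, and 1 lower (Cdkn1a), beside 6.66%. The 3 became 7 without E2, 5 without N3, 2 without G4 and 1 without G2 or L1, and the 1 became 0 without G1, G2, E2 or G4. In 3 genes (Orc1, Pola1 and Pole) every WT Treg code lay above every LNGFR code, beside 7.80% of all genes. In 2 (E2f1 and Cdkn1a) every WT Treg code lay below, beside 8.82%. With all 11 codes, all 4 of these counts are smaller shares of the 50 than of all genes. DESeq2 and limma-voom each called 1 higher, Pola1, beside 2.60% and 2.85% of all genes, and 14 were called without E2, G1 and N3, beside 4.19%.

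E2, the shallow code, was the lowest WT Treg code in 45 of the 50 genes. G4 and L1 each lay above every LNGFR code in 26 genes. That count leaves out E2, a choice made after the data were seen. Neither it nor the 45 has a share over all genes beside it, so they do not tell these genes from others. Rrm2 was at 21.1 CPM in E2, 167 in G4 and 177 in L1, with a log2 fold change of 0.90 ± 0.72 against LNGFR. Mcm10 was at 6.58 CPM in E2, 10.5 in G4 and 20.0 in L1 (1.26 ± 0.54, unadjusted p 0.0367, adjusted p 0.305). Pola1 went the other way within the group, at 86.9 CPM in E2, 43.3 in G4 and 49.7 in L1, where E2 was the highest code of all 11, and its log2 fold change was 1.14 ± 0.32 (adjusted p 0.137). Pole was at 31.6 CPM in E2, 29.3 in G4 and 30.2 in L1 (0.84 ± 0.33, adjusted p 0.272). The median was 0.80 in the lagging-strand genes and 0.66 in the MCM genes. It was -0.24 in the G1/S regulators, -0.11 in origin licensing and -0.04 in the clamp and loader, and these 3 medians were 0.05, 0.49 and 0.40 without E2 and G1.

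Cdkn1a was the gene of the 50 furthest below LNGFR in WT Treg cells. It was at 15.8 CPM in E2, 38.8 in G4 and 74.0 in L1, all under the lowest LNGFR code (82.5 CPM), with a log2 fold change of -1.29 ± 0.48 (unadjusted p 0.0181, adjusted p 0.251). E2f1 was at 3.95 CPM in E2, 6.31 in G4 and 7.19 in L1 (-0.66 ± 0.35, adjusted p 0.391), also below all LNGFR codes. E2 held 1154626 counts in all, so its values in low genes such as E2f1, Orc1 and Mcm10 rest on few reads. Cdk6 was at 201 CPM in E2, 505 in G4 and 642 in L1, Cdk4 at 48.7 CPM in E2, 255 in G4 and 195 in L1 and Ccnd2 at 217 CPM in E2, 829 in G4 and 718 in L1. In these 3 genes E2 lay far below every LNGFR code. G4 lay just below the LNGFR range in Cdk6 and above it in Cdk4 and Ccnd2, and L1 lay within it in all 3.

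FOXP3 was also set against WT Treg, the engineered against the transferred regulatory cells. Of the 50 genes 49 had a log2 fold change above 0 (all except Pola1), with a median of 0.71, beside 0.01 over all genes. Without E2 that median was 0.41. The edgeR test called 0 higher and 0 lower, where it called 0.136% of all genes higher and 0.123% lower. At an unadjusted p under 0.05, 9 were higher and 0 lower (Orc6, Cdt1, Gmnn, Tk1, Rrm2, E2f1, E2f2, Ccne1 and Cdkn1a), beside 4.38% of all genes that were higher and 12.1% that were lower. The 9 became 2 without E2, 3 without F5, 4 without N2 and 23 without N3, and 1 without the 3 shallow libraries. In 7 genes every FOXP3 code lay above every WT Treg code (Cdt1, Rfc2, Pold1, Tk1, E2f1, Cdk6 and Cdkn1a), beside 6.12%. G4 and L1 each lay below F1, F2, F5 and N2 in 39 of the 50 genes. That count leaves out E2 and N3, a choice made after the data were seen. It was made for the 50 genes only and cannot be set against the 6.12%, which is for all codes. DESeq2 called 1 (Cdt1), beside 1.39% of all genes, and limma-voom 4 (Ccne1, Cdt1, E2f2 and Tk1), beside 2.23%. Without E2, G1 and N3, 17 were called, beside 3.85%.

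Cdt1 had the smallest adjusted p here. WT Treg codes held 34.2 CPM in E2, 56.3 in G4 and 58.7 in L1, under the lowest FOXP3 code (N3, 85.9 CPM), with a log2 fold change of 1.04 ± 0.32 (adjusted p 0.118). Tk1 was at 47.4 CPM in E2, 52.4 in G4 and 53.0 in L1, close to one another and all below the 56.1 CPM of N3 (0.71 ± 0.30, adjusted p 0.259). Cdkn1a was 1.27 ± 0.44 (adjusted p 0.159), and Rrm2 1.57 ± 0.67 (adjusted p 0.259). Ccne1 was at 13.2 CPM in E2, 36.4 in G4 and 33.2 in L1, and N3 lay below G4 and L1, which kept the groups from separating (1.17 ± 0.47). Ccnd2 (0.01 ± 0.40) and Cdkn1b (0.02 ± 0.24) lay closest to 0.

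**Figure D4:**
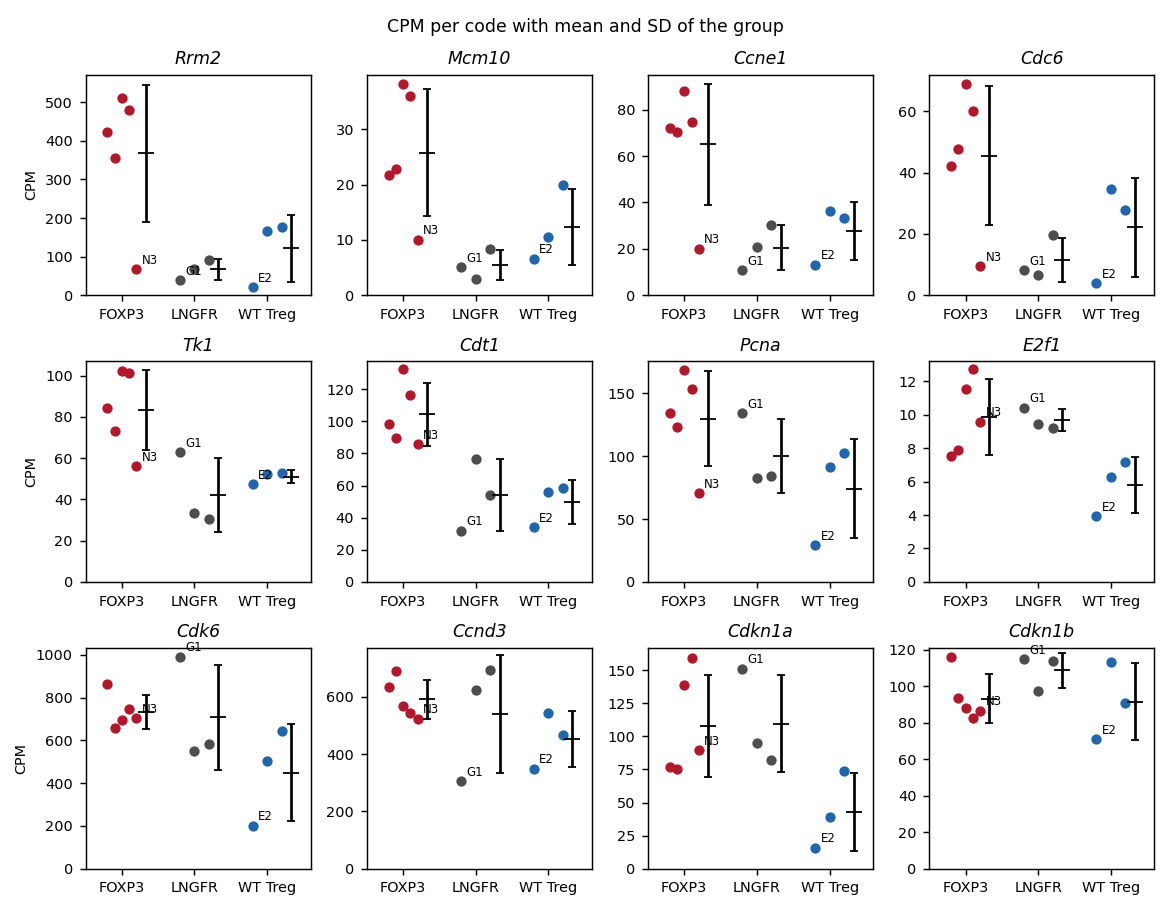
CPM of 12 genes in each code, with the mean and SD of the group (black) beside the points, on axes that start at 0. In Rrm2, Ccne1 and Cdc6 the other 4 FOXP3 codes lie above every LNGFR and WT Treg code while N3 lies among them, and Cdk6, Ccnd3 and Cdkn1b overlap between FOXP3 and LNGFR.

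Within LNGFR, G1 was the lowest code in 23 of the 50 genes and the highest in 21. G2 was the lowest in 18 and the highest in 6, and G3 the lowest in 9 and the highest in 23. These ranks alone do not set G1 apart, and they were counted for the 50 genes only. G1 was at least 2-fold below G2 and G3 in 13 genes, among them Mcm3 (25.6 CPM against 155 and 161), Rrm1 (23.2 against 114 and 121) and Rpa1 (33.6 against 170.0 and 183). It was at least 1.5-fold above them in 13, among them Gins2 (27.2 CPM against 6.56 and 8.39) and Dut (147 against 55.5 and 70.5). The genes lowest in G1 had a median exon length of 4666 bases and those highest in G1 one of 3611. The part of length in these values was not tested.

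**Figure D5:**
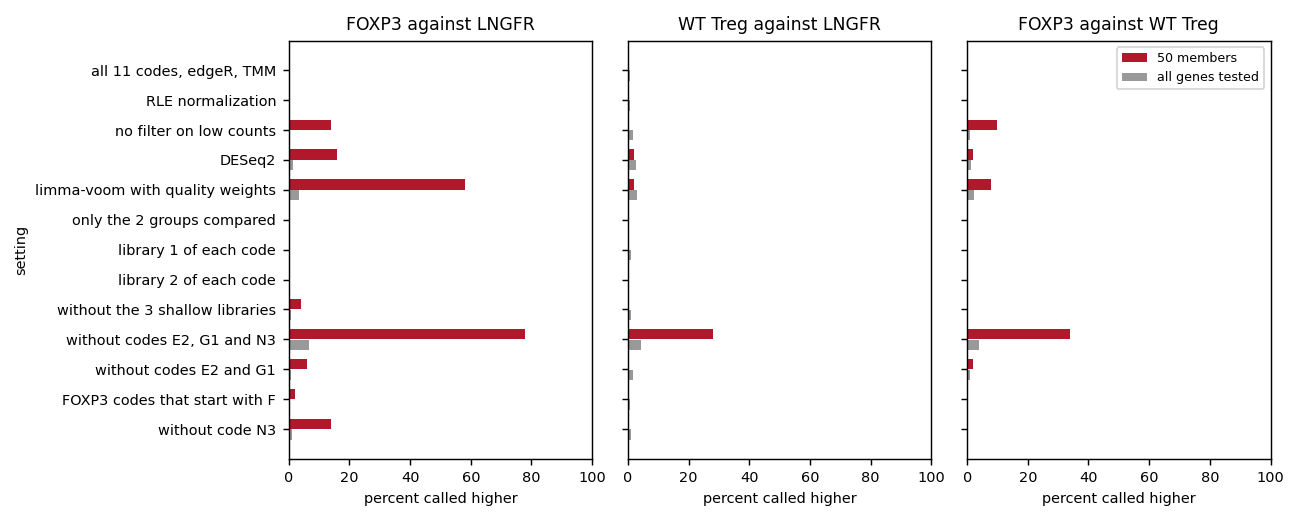
Percent of the 50 genes (red) and of all genes tested (grey) called higher at an adjusted p under 0.05, for each setting and comparison. With all 11 codes, edgeR and the filter on low counts no gene of the 50 was called, and the largest share, 39 of 50 for FOXP3 against LNGFR, came without codes E2, G1 and N3.

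Other genes of the same phases were read from lists outside the 50. Of all genes tested in FOXP3 against LNGFR, 48.9% lay above 0, with a median of -0.02. At an unadjusted p under 0.05, 4.81% of all genes were higher, while the edgeR test called 0.168% higher and 0.375% lower. Of 47 other replication genes, 40 lay above 0 in FOXP3 against LNGFR (median 0.70) and the edgeR test called 0, with 20 at an unadjusted p under 0.05. The smallest p there belonged to Exo1, an exonuclease of repair and replication (19.9 ± 8.63 CPM against 4.70 ± 0.626 CPM, SD, 5 and 3 codes), at 2.06 ± 0.44 (adjusted p 0.0616), and to Pole2, a polymerase epsilon subunit, at 1.26 ± 0.27 (adjusted p 0.0624). Of 23 other G1/S regulators tested 17 lay above 0 (median 0.48) and 0 were called, with 5 at an unadjusted p under 0.05. Ccna2, cyclin A2 of S phase, led them at 2.74 ± 0.64 (adjusted p 0.0839). All 20 G2/M and mitosis genes lay above 0 (median 1.77), all 20 with an unadjusted p under 0.05, and 1 was called higher: Bub1, a spindle checkpoint kinase, at 2.45 ± 0.50 (edgeR adjusted p 0.0465). Its adjusted p was 0.00551 without N3 and 0.0307 without E2. It was 0.0601 to 0.297 without any other single code, so the Bub1 call is lost there. Mki67, the proliferation marker, was at 165 CPM in F1, 192 in F2, 234 in F5, 283 in N2 and 50.4 in N3, and in LNGFR at 51.1 CPM in G1, 51.7 in G2 and 56.2 in G3 (1.80 ± 0.45, adjusted p 0.102). N3 was again at the LNGFR level.

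In the other comparisons these lists held no called gene. Medians for WT Treg against LNGFR were 0.39 (other replication), 0.46 (other G1/S) and 0.85 (G2/M and mitosis), beside 0.08 over all genes. Of the 47, 23 and 20 genes tested, 8, 3 and 3 were higher at an unadjusted p under 0.05, beside 8.16% of all genes. At that level 0, 1 and 0 were lower, beside 6.66%. For FOXP3 against WT Treg the medians were 0.40, 0.23 and 1.04, beside 0.01. At the same level 3, 3 and 5 genes were higher, beside 4.38%, and 2, 0 and 0 lower, beside 12.1%.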

How the data were processed

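RNA was measured in 22 Smart-seq libraries, summed to 11 codes of 2 libraries each (5 FOXP3, 3 LNGFR and 3 WT Treg). The deposited values are whole-number read counts, 1 row per gene symbol, and show no sign of normalization by the authors. The submitters' processing notes name STAR 2.7.3a, featureCounts, Subread 2.0.0 and the build mm10 (GRCm38). No source used here gives the annotation, the strand setting or the handling of multi-mapping reads. Library totals ran from 332570 to 5453375 counts. Without molecular identifiers, copies made by PCR count as reads of their own.

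Tests were run in R 4.3.3. The main one was edgeR 4.0.16 (quasi-likelihood, robust, TMM, filterByExpr) with all 3 groups in 1 fit and Benjamini-Hochberg adjusted p under 0.05 over 15462 genes. Levels are CPM, scaled to 1e6 counts of the TMM-adjusted library size, and log2 levels add 1 CPM. The SE is the absolute log2 fold change over the square root of F. The common biological coefficient of variation was 0.491. On simulated data with 15462 genes, FOXP3 against LNGFR recovered 2.99% of 2-fold and 44.8% of 4-fold changes. WT Treg against LNGFR recovered 0% and 31.3%, and FOXP3 against WT Treg 1.49% and 41.8%. Alternatives were RLE scaling, no filter, DESeq2 1.42.0, limma-voom (limma 3.58.1), 2 groups only, single libraries and left-out codes. Gene positions are those of GENCODE M21. Promoter windows are from RefSeq. The members, roles and lists were chosen with earlier results of these data known. Values per code are given for members called with all 11 codes by the main test (none was), for members whose groups did not overlap at an unadjusted p under 0.05, for 12 members in any case, and for Cdc6, chosen after its values were seen.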

Additional observations from a re-analysis of the deposited data

Results flagged for a closer look

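In 3 of the 50 genes the FOXP3 code N3 lay far from the other 4 FOXP3 codes on the CPM scale, by a gap to the nearest code of more than 0.71 of the group's range (Dixon's critical value for 5 samples at 95%). Pola2 was at 45.7 CPM in N3 (gap 0.80 of the range), Tyms at 45.4 CPM (0.72) and Ccne1 at 20.0 CPM (0.74). On the log2 scale 14 of the 50 genes met the same criterion. Chance alone marks about 1 in 20 groups, and the 50 genes share their 5 codes, so these are not independent events.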

How the results depend on the processing

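No gene of the 50 was called in either direction by edgeR with all 11 codes and the filter on low counts. The share of all genes tested in a setting that it called higher stands in brackets. For FOXP3 against LNGFR the number called higher was 0 with RLE scaling (0.116%) and with only the 2 groups compared (0.343%). It was also 0 with library 1 (0.337%) or library 2 (0.0461%) of each code. It was 7 without the filter on low counts (0.394%), 8 with DESeq2 (1.44%), 29 with limma-voom (3.34%) and 2 without the 3 shallow libraries (0.657%). It was 39 without codes E2, G1 and N3 (6.61%), 3 without E2 and G1 (0.824%), and 1 with only FOXP3 codes that start with F (0.365%). Leaving out 1 code gave 0 to 7, with 7 without N3 (1.08%) and 3, Fen1, Mcm10 and Rrm2, without E2 (0.585%). For WT Treg against LNGFR it was 1 with DESeq2 (2.60%) and with limma-voom (2.85%), 14 without E2, G1 and N3 (4.19%), and 0 otherwise. For FOXP3 against WT Treg it was 5 without the filter (0.861%), 1 with DESeq2 (1.39%) and 4 with limma-voom (2.23%). It was 17 without E2, G1 and N3 (3.85%), 1 without E2 and G1 (0.983%), and 0 otherwise. No gene of the 50 was called lower in any setting run. Leaving out 1 code moved the median log2 fold change between 0.89 and 1.16 for FOXP3 against LNGFR, between 0.07 and 0.58 for WT Treg against LNGFR, and between 0.41 (without E2) and 1.05 (without G4) for FOXP3 against WT Treg. For WT Treg against LNGFR the lowest median came without G4 (all genes 0.12), and the highest without E2. Fold changes of genes with an unadjusted p under 0.05 were recomputed under each alternative: they passed the adjusted threshold in 101 cases, stayed short of it in 801, and changed sign in none. The genes were picked by that p in the same data, and the alternatives reuse most of the codes. The cases are therefore not independent, and an unchanged sign says little. The cause of the differences between settings was not tested. No paired analysis was possible because the groups share no codes. At this depth and spread, changes of 2-fold were rarely recovered in simulated data. Those data covered genes of all levels and had no code like N3 or G1, so the rates do not describe the 50 genes. The absence of calls does not show that the groups are alike.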
